A study of Mus musculus with 6 samples.

Results

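The 81 genes described here carry the symbols of proteins of the cytoplasmic ribosome, 32 of the small subunit and 49 of the large subunit with its stalk, among 46078 genes measured in the mouse ovary. They were chosen by symbol alone: Rpl or Rps followed by a number and at most 1 letter (a, x, y or l), the stalk genes Rplp0, Rplp1 and Rplp2, and Rpsa, with every pseudogene symbol holding -ps left out. By annotation 80 are protein coding and 1, Rps4l, counted with the small subunit, is a transcribed processed pseudogene. RNA came from the ovaries of C57BL/6 mice, 8 to 9 weeks of age, in 3 libraries labelled control and 3 labelled cyclophosphamide (CTX), an alkylating drug used in chemotherapy that is toxic to ovarian follicles. Strain, tissue and age were the same in both groups, while the sources used here do not give the dose, the route, the time after treatment or the stage of the oestrous cycle. Since the labels do not tie the libraries to separate animals, every p-value reflects only the spread among these 6 samples, and that spread may be technical.

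Each ribosome is built from a small subunit that reads the mRNA and a large subunit that joins amino acids. Both consist of ribosomal RNA and a fixed set of proteins that are needed in equal numbers, with the stalk proteins as the exception. Proteins made in excess of ribosomal RNA are degraded, and the mRNAs of this family are short, abundant, and controlled as a group at translation through a pyrimidine-rich start. In the ovary, growing oocytes store ribosomes for the embryo, and dividing granulosa cells and hormone-producing luteal cells make them for growth and secretion.

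The values are RPKM, read numbers scaled by exon length and by sequencing depth, at a depth scale of 15820000 to 22120000 reads per library. Between 13629 (CTX 1) and 14511 (control 3) genes reached an RPKM of 1. The ribosomal protein genes made up a share of the RPKM total of 5.36, 5.28 and 6.44% in the 3 controls, by replicate number, and of 7.08, 6.34 and 6.22% in the 3 CTX libraries. As a share of reads assigned to genes, with the values multiplied back by exon length, this was 2.70, 2.64 and 3.32% in the controls and 3.93, 3.05 and 3.12% in CTX. CTX 1 held the highest share and controls 1 and 2 the lowest on both scales. Here and below, the values of a group follow the replicate numbers 1, 2 and 3. In bulk tissue, fewer cells of a type and less RNA per cell cannot be told apart.

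Group means were slightly higher in CTX than in control for most ribosomal protein genes, and no gene passed the test. This does not hold for each library: by the medians given below, control 3 stood above CTX 2 and CTX 3. All genes share the same libraries, so the signs counted here are not independent. Differences are given as CTX minus control in mean log2(RPKM + 1), which understates the change of low genes. Of the 81 genes, 79 passed the filter on low values (1 RPKM or more in 3 or more libraries), and Rpl3l and Rpl10l did not. The log2 difference was positive in 74 of the 79 and negative in 5, and its median was 0.22 with quartiles of 0.12 and 0.29. Over all 14535 genes tested, 48.8% were positive, and the median was -0.01 with quartiles of -0.13 and 0.12. By limma, with Benjamini-Hochberg adjustment over all 14535 genes at 0.05, 0 ribosomal protein genes were called higher and 0 lower, against 0% of all genes in either direction. The smallest adjusted p among the ribosomal protein genes was 1.00, and 0.411 among all genes. At an unadjusted p under 0.05, limma had 1 of the 79 (Rpl13) higher and 0 lower, against 1.16% of all genes higher and 2.29% lower. With limma's voom on approximate reads, 0 of the 79 were called, as were 0% of all genes, and 0 had an unadjusted p under 0.05, against 0.863% of all genes higher and 2.33% lower.

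CTX 1 stood above the other libraries for most of the family. It had the highest value of the 6 libraries in 65 of the 79 genes and the lowest in 0, while 24% of all genes were highest there and 42.0% were lowest there. Its level divided by the mean of the other 5 libraries had a median of 1.37 over the 79 genes, from 0.516 in Rpl39l to 2.27 in Rpl41, beside a median of 0.890 over all genes. Measured from each gene's own mean over the 6 libraries on the log2 scale, the median deviation was -0.19, -0.21 and 0.10 in the controls and 0.39, -0.04 and 0.02 in CTX. The same medians over all genes were -0.01, -0.03 and 0.05 in the controls and -0.11, 0.04 and 0.04 in CTX. The ribosomal protein genes therefore stood high in the library where the typical gene stood low.

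**Figure D1:**
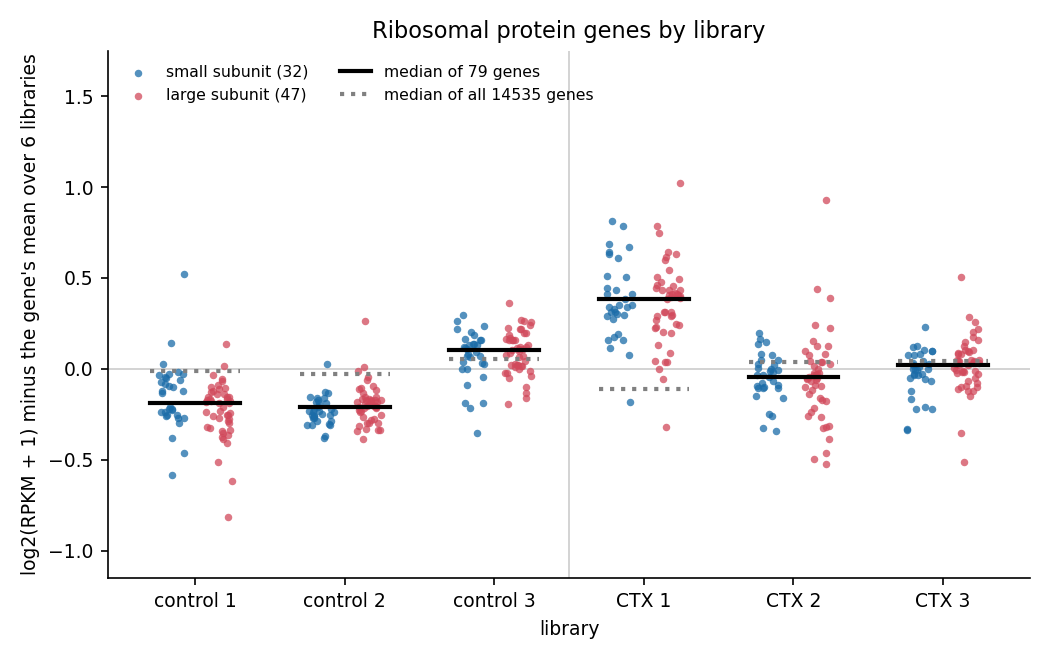
Each point is 1 ribosomal protein gene in 1 library (x axis), and the y axis is log2(RPKM + 1) minus the gene's mean over the 6 libraries, with black bars for the median of the 79 genes and dotted bars for the median of all 14535 genes. CTX 1 lies highest, at a median of 0.39, controls 1 and 2 lie lowest, and control 3, CTX 2 and CTX 3 lie between them.

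The controls differed among themselves as well. Control 3 was above both other controls in 72 of the 79 genes, against 51.9% of all genes. The lowest library was control 2 in 34 genes, control 1 in 28 and CTX 2 in 14, where it was for 11.4, 12 and 13% of all genes. CTX 2 and CTX 3 both lay above controls 1 and 2 in 48 genes, against 42.7% of all genes, and both lay below control 3 in 48 genes, against 40.9%.

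Complete separation of the groups was rare. All 3 CTX libraries lay above all 3 controls in 3 of the 79 genes, Rpl10a, Rpl12 and Rpl13, where 3.32% of all genes did so, and all lay below in 0, where 5.5% of all genes did so. Control 3 had most weight in this count: without it, 48 of the 79 genes had every CTX library above both other controls, against 11.9% of all genes. Without control 1 the count was 5, with Rps13 and Rps27a added to those (4.35% of all genes), without control 2 it was 3 (5.08%), and without CTX 2 or CTX 3 it was 11 (4.92%) or 15 (6.07%). Leaving out control 2 also put 2 genes, Rpl23a and Rps4l, wholly below the controls, against 8.9% of all genes. The count of genes wholly above was 9 after quantile normalization (4.3% of all genes), 8 after a correction for exon length (4.97%), and 2, Rpl10a and Rpl12, with pseudogene copies summed into each gene (3.26%).

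Without CTX 1 the difference from control was smaller. CTX 2 and CTX 3 against the 3 controls gave a positive log2 difference in 61 of the 79 genes, against 55.8% of all genes, and a median of 0.11 beside 0.03 for all genes. By limma 0 of the 79 were called, with a smallest adjusted p of 0.283, where 0.0138% of all genes were called higher and 0.0206% lower. At an unadjusted p under 0.05 there was 1 of the 79, Rpl39l, against 16.6% of all genes. Both remaining CTX libraries lay above all controls in 4 genes, Rpl10a, Rpl12, Rpl13 and Rpl39l, where 22.8% of all genes did so, and below in 0, where 17% did so. The share of ribosomal protein genes past either mark was below the background.

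**Figure D2:**
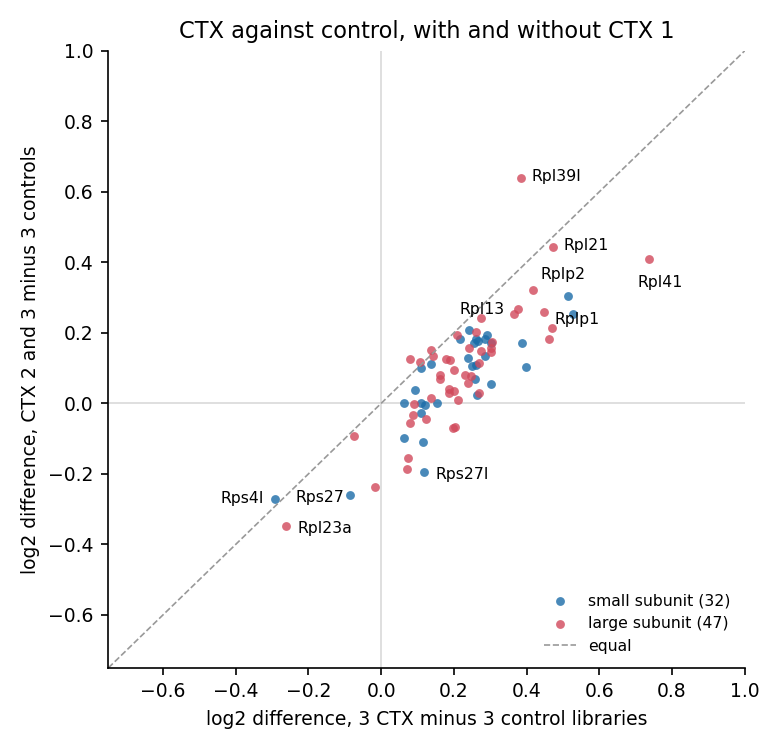
Each point is 1 of the 79 tested ribosomal protein genes, with the log2 difference between 3 CTX and 3 control libraries on the x axis and between CTX 2 and 3 and the 3 controls on the y axis. Most points lie below the dashed line of equal values, and the median falls from 0.22 to 0.11.

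Library weights estimated from all genes by limma gave the weight of CTX 1 directly. These array weights measure how closely a library follows its group and were 6.36, 1.06 and 0.254 in the controls and 0.0806, 2.89 and 2.49 in CTX. CTX 1 had the lowest weight and control 3 the next lowest. With them, 23 of the 79 genes were called higher, against 27.9% of all genes, and 0 were called lower, against 18.9% of all genes. The 29.1% of ribosomal protein genes called higher was near the background. With the leading residual component added to the model, 0 of the 79 were called in either direction (smallest adjusted p 0.185), against 0.502% of all genes higher and 0.592% lower.

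The length of all annotated exons and the base composition were related weakly to the deviations in several libraries. Across the 79 genes, the Spearman correlation of the deviation with exon length was -0.13, 0.05 and 0.03 in the controls and -0.27, 0.05 and 0.32 in CTX, where the points of each value share 1 library. With the GC content of the mRNA it was -0.22, -0.13 and -0.34 in the controls and 0.37, 0.29 and -0.42 in CTX. CTX 3 had values at least as large as those of CTX 1, with the opposite sign. Over all genes the correlation with exon length was -0.27 in CTX 1 and between 0.01 and 0.15 in the other libraries. The 12 genes with at most 300 coding bases had a median deviation of 0.58 in CTX 1, and the 21 genes with more than 600 coding bases had 0.34. Over all 79 genes the Spearman correlation with coding length was -0.16, 0.09 and 0.07 in the controls and -0.19, 0.03 and 0.36 in CTX. After a smooth correction of each library for exon length over all genes, the median deviation of the ribosomal protein genes in CTX 1 was 0.33, and CTX 1 was highest in 64 of the 79, where 31.6% of all genes were highest there.

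Markers of ovarian cell types also differed between libraries, in another order. Luteal markers (10 genes, all tested) summed to 8801, 9326 and 4709 RPKM in the controls and to 11850.3, 3653 and 3625 RPKM in CTX. Granulosa markers (10 of 10) summed to 1636, 1487 and 3651 RPKM in the controls and 972, 3249 and 3221 RPKM in CTX. Inha was the largest part of each granulosa sum, and not every marker followed it. Inhbb had 92.6, 80.3 and 255 RPKM in the controls and 20.3, 69.0 and 71.1 RPKM in CTX. Oocyte markers (10 of 10) summed to 164, 140 and 331 RPKM in the controls and to 103, 378 and 369 RPKM in CTX. Adipocyte markers (5 of 6 tested) summed to 8.54, 5.46 and 129 RPKM in the controls and 7.03, 173 and 159 RPKM in CTX. No marker of these 4 lists was at 0 in all 6 libraries. By these marker sums CTX 1 resembled controls 1 and 2, while by ribosomal protein genes it lay at the opposite end from them. The part of length, base composition and cell makeup in the difference was not tested beyond these values.

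The small subunit binds the mRNA and decodes it. Its 32 genes had a median log2 difference of 0.25, with 30 positive, and CTX 1 was highest in 27. Rps26, whose protein lines the mRNA exit channel and which was the most abundant small-subunit gene per exon length, had 1172, 1124 and 1309 RPKM in the controls and 1556, 1161 and 1228 RPKM in CTX (chr10:128624534-128626747, minus strand). CTX 1 was the highest library, CTX 2 and 3 lay within the range of the controls, and the groups overlapped (log2 difference 0.12, SE 0.21, and -0.01 without CTX 1).

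Rps15, a protein of the head of the small subunit, had 753, 709 and 935 RPKM in the controls and 1111, 983 and 839 RPKM in CTX. Only CTX 3 lay within the control range. Rps10, one of the genes mutated in Diamond-Blackfan anemia, an inherited failure of red cell production, had 33.7, 43.6 and 52.6 RPKM in the controls and 82.1, 51.8 and 53.9 RPKM in CTX (chr17:27630418-27636669, minus strand). CTX 1 stood apart above the other 5, and CTX 2 lay just below control 3 (log2 difference 0.51, SE 0.24, limma adjusted p 1.00). The difference was 0.30 without CTX 1 and 0.28 with pseudogene copies summed. All 9 Diamond-Blackfan anemia genes listed had positive differences, with a median of 0.22 that was 0.08 without CTX 1. The 6 genes at the mRNA entry and exit sites were all highest in CTX 1, with a median of 0.26 that was 0.12 without it.

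Rps28 and Rps21, named after their values were seen, were among the genes with the largest excess in CTX 1. Rps28, a small protein near the mRNA exit channel, had 18.9, 17.2 and 19.7 RPKM in the controls and 40.3, 25.96 and 19.2 RPKM in CTX. Rps21 had 166, 176 and 192 RPKM in the controls and 353, 208 and 175 RPKM in CTX. In both genes CTX 1 was highest by far, CTX 2 lay above the controls, and CTX 3 lay among them.

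The large subunit holds the catalytic centre and the tunnel through which the new peptide leaves. Its 47 tested genes had a median log2 difference of 0.20, with 44 positive, and CTX 1 was highest in 38. Rpl4, which lines the exit tunnel, had 971, 944 and 1215 RPKM in the controls and 1159, 1149 and 1127 RPKM in CTX. The CTX libraries lay close together here, between the low pair of controls and control 3. Rpl32 had 938, 878 and 1077 RPKM in the controls and 1421, 1188 and 989 RPKM in CTX, with CTX 3 within the control range and the other CTX libraries above it.

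Among the 3 genes whose groups did not overlap, a share near that of all genes, Rpl13 had 16.9, 18.4 and 21.04 RPKM in the controls and 28.6, 21.3 and 23.8 RPKM in CTX (chr8:123102350-123105244, plus strand). Its mean was 18.8 ± 2.09 RPKM in control and 24.6 ± 3.72 RPKM in CTX (SD, n = 3 each), with a log2 difference of 0.37 (SE 0.15) and the smallest limma p of the family, 0.0463 before and 1.00 after adjustment. The gap between control 3 and CTX 2 was small beside the spread within either group.

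Rpl10a, named after its values were seen, encodes a protein of the flexible L1 stalk that guides the leaving tRNA. It had 41.7, 41.4 and 47.1 RPKM in the controls and 51.1, 49.4 and 49.9 RPKM in CTX (chr17:28328471-28331033, plus strand). Its log2 difference was 0.21 with all libraries and 0.19 without CTX 1 (limma adjusted p 1.00 with all).

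The acidic stalk recruits the elongation factors to the ribosome, and its 4 genes, with the base protein gene Rpl12, had the highest median log2 difference of the lists of ribosomal protein genes given here, 0.35, or 0.25 without CTX 1. All 4 were highest in CTX 1. Rplp1, the most abundant ribosomal protein gene per exon length, had 1121, 1199 and 1319 RPKM in the controls and 2143, 1650.0 and 1272 RPKM in CTX (chr9:61913284-61914542, minus strand). CTX 1 and CTX 2 lay above all controls and CTX 3 among them (1213 ± 99.9 RPKM in control and 1688 ± 437 RPKM in CTX, SD, n = 3 each). Its log2 difference was 0.45 (SE 0.26), or 0.26 without CTX 1 and 0.21 after quantile normalization.

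Rplp2, the partner of Rplp1 in the stalk dimers, had 122, 125 and 166 RPKM in the controls and 209, 187 and 156 RPKM in CTX. As in Rplp1, only CTX 3 lay within the control range (log2 difference 0.42, SE 0.18). Rplp0, which anchors those dimers, had 771, 736 and 841 RPKM in the controls and 1184, 834 and 792 RPKM in CTX, where CTX 1 alone lay above the controls. Rpl12 had 15.03, 13.9 and 17.6 RPKM in the controls and 19.8, 18.8 and 18.2 RPKM in CTX. Its groups did not overlap, and its log2 difference of 0.27 (SE 0.12) was 0.24 without CTX 1.

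Rpl5 and Rpl11 form, with 5S ribosomal RNA, the particle that can also bind Mdm2, the ubiquitin ligase of p53, when ribosome assembly fails. Rpl11 had 80.5, 72.6 and 94.2 RPKM in the controls and 105, 71.4 and 86.9 RPKM in CTX, with CTX 1 highest and CTX 2 lowest. Rpl5 had 8.73, 9.10 and 10.5 RPKM in the controls and 10.2, 9.66 and 11.6 RPKM in CTX, which overlapped. Of 9 tested genes of nucleolar stress and p53, 6 had a positive difference, and by limma 0 were called and 0 had an unadjusted p under 0.05. Phlda3, a p53 target that restrains Akt, had 14.6, 15.4 and 14.1 RPKM in the controls and 23.7, 17.99 and 16.2 RPKM in CTX, with no overlap (log2 difference 0.35, SE 0.16, limma adjusted p 1.00, and 0.20 without CTX 1).

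Around the exit tunnel, 7 of 8 genes had positive differences and the median was 0.17, or 0.03 without CTX 1. Rpl39, one of the smallest proteins of the tunnel, had 190, 183 and 197 RPKM in the controls and 319, 163 and 202 RPKM in CTX. CTX 1 was far above the rest and CTX 2 was the lowest library. Rpl23a, at the tunnel exit where the signal recognition particle docks, went the other way, with 544, 491 and 595 RPKM in the controls and 511, 344 and 527 RPKM in CTX (chr11:78180932-78183584, minus strand). CTX 2 lay below every other library, and CTX 1 and 3 lay within the control range (log2 difference -0.26, SE 0.22, and -0.06 without CTX 2).

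Rpl41, a basic peptide that is among the shortest proteins known in animals, showed the largest log2 difference of the family, 0.74 (SE 0.35). It had 129, 160 and 173 RPKM in the controls and 401, 268 and 154 RPKM in CTX (chr10:128548114-128549305, minus strand). CTX 1 and CTX 2 lay above the controls while CTX 3 lay below 2 of them, and without CTX 1 the log2 difference was 0.41. Rpl14 had 89.5, 111 and 130 RPKM in the controls and 221, 124 and 124 RPKM in CTX, where only CTX 1 lay above the control range. Rpl21 varied most across libraries, with 10.8, 23.9 and 17.6 RPKM in the controls and 24.4, 38.5 and 13.5 RPKM in CTX. With pseudogene copies summed it varied less, with 56.0, 63.0 and 75.9 RPKM in the controls and 78.9, 72.3 and 67.5 RPKM in CTX. Its log2 difference was 0.47 alone and 0.17 with the copies.

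Besides Rps4l and Rpl23a, the negative log2 differences were those of Rps27 (-0.09), Rpl36a (-0.07) and Rpl37 (-0.02). Rpl37 had 181, 180.4 and 230 RPKM in the controls and 263, 141 and 195 RPKM in CTX, so that its highest and its lowest library were both CTX. Rpl36a had 11.7, 13.3 and 17.96 RPKM in the controls and 13.7, 10.7 and 16.1 RPKM in CTX, all but CTX 2 within the range of the controls. Of the 4 X-linked genes, Rps4x, Rpl10, Rpl36a and Rpl39, 3 had positive differences and 2 were highest in CTX 1. Rps4x, of the small subunit body, had 486, 470 and 647 RPKM in the controls and 719, 573 and 624 RPKM in CTX, with CTX 2 and 3 below control 3.

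**Figure D3:**
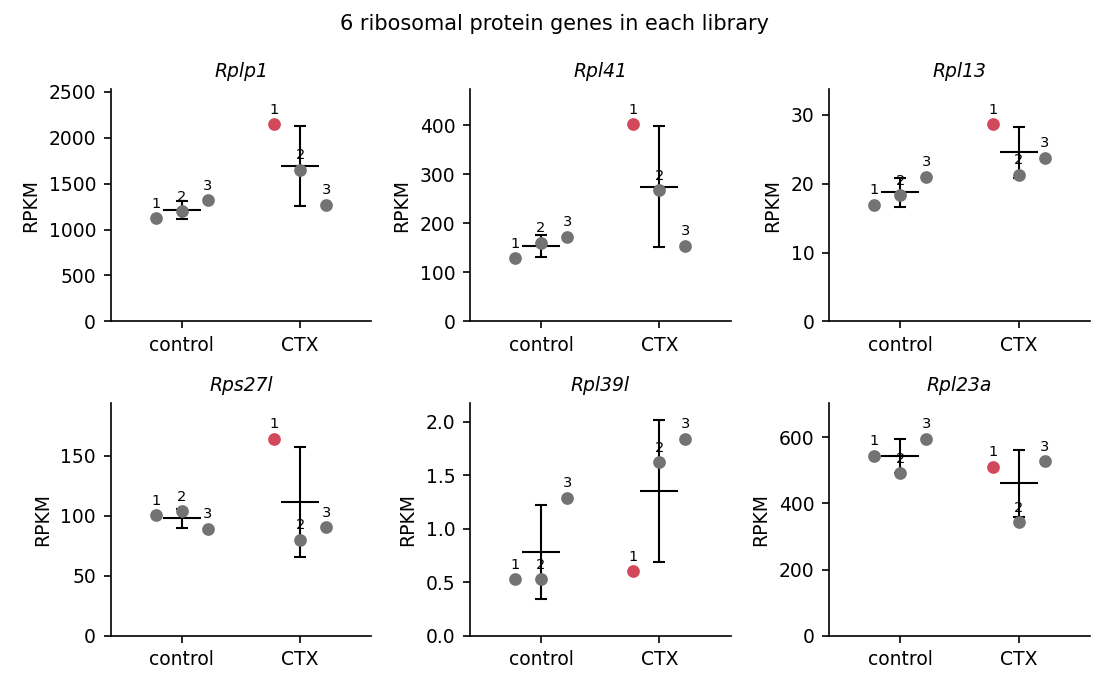
RPKM of 6 ribosomal protein genes in each library (points with replicate numbers, CTX 1 in red), with the mean and SD of the 3 libraries of a group as a bar. Rplp1 and Rpl41 have CTX 1 highest and CTX 3 among the controls, Rpl13 does not overlap, Rps27l is high in CTX 1 alone, Rpl39l is low in CTX 1, and Rpl23a is lowest in CTX 2.

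Symbols of the family that end in l mark copies of a parent gene, some of which encode proteins that replace or accompany the parent protein in certain tissues. Rps27l, which is also a p53 target gene, had 101, 104 and 89.1 RPKM in the controls and 164, 80.1 and 90.5 RPKM in CTX (chr9:66946086-66949516, plus strand). CTX 1 was far above the other 5, CTX 2 was the lowest, and the log2 difference of 0.12 turned to -0.19 without CTX 1. Its parent Rps27 had 7.29, 6.28 and 8.74 RPKM in the controls and 9.04, 6.58 and 5.46 RPKM in CTX, with overlapping groups. Rps4l, the annotated pseudogene, had 14.5, 7.28 and 12.3 RPKM in the controls and 8.48, 10.4 and 7.54 RPKM in CTX, and its log2 difference of -0.29 was the lowest of the family. It was -0.10 without control 1 and -0.55 without control 2.

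Rpl39l, best known from male germ cells, was the tested gene in which CTX 1 stood lowest relative to the other libraries. It had 0.53, 0.53 and 1.29 RPKM in the controls and 0.60, 1.62 and 1.84 RPKM in CTX (chr16:10170226-10174911, plus strand), which stand for about 7, 7 and 18 reads and 9, 30 and 26 reads. The low libraries were controls 1 and 2 and CTX 1, the same libraries in which the summed oocyte, granulosa and adipocyte markers were low. Its log2 difference was 0.38 (SE 0.29), and 0.64 without CTX 1, 0.58 without control 3 and 0.23 without CTX 3. With a pseudocount of 0.1 it was 0.69, and by voom 0.73. With array weights it was 0.80 (limma adjusted p 0.0027), in a setting that called 27.9% of all genes higher and 18.9% lower. The adjusted p of Rpl39l was 0.283 by limma without CTX 1 and 0.9996 by voom, and the main fit did not call it. Whether this pattern and those of the markers are linked was not tested.

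The remaining paralogs were at the limit of detection. Rpl10l, which replaces the X-linked Rpl10 during male meiosis, had 0.43, 0.49 and 0.23 RPKM in the controls and 0.05, 0.31 and 0.06 RPKM in CTX, or between 1 and 8 reads per library. Rpl3l, the form of striated muscle, had 0.15, 0.08 and 0 RPKM in the controls and 0.03, 0.08 and 0 RPKM in CTX, at most 4 reads. The parent genes were far above them per exon length: Rpl10 had 29.3, 26.7 and 33.2 RPKM in the controls and 29.3, 31.5 and 33.4 RPKM in CTX. Rpl3 had 170, 160 and 195 RPKM in the controls and 218, 188 and 192 RPKM in CTX.

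In the lists of related genes that follow, limma and voom called 0 genes. At an unadjusted p under 0.05, limma had 1 of 10 ribosomal proteins and related genes outside the symbol rule (Rpl7l1, higher). It had 1 of 77 mitochondrial ribosomal proteins (Mrps6, higher) and 0 in the others, beside 1.16% of all genes higher and 2.29% lower. Voom had 1, 1 and 0, beside 0.863% and 2.33%. The 10 genes outside the symbol rule are not all ribosomal proteins, since the list also holds Rpl7l1, the copy Rps27rt and Rps19bp1. Of the 10, 9 had positive differences and 8 were highest in CTX 1, with a median of 0.20 that was -0.04 without CTX 1. Gnb2l1 (Rack1), the scaffold on the small subunit's head, had 158, 158 and 211 RPKM in the controls and 251, 218 and 199 RPKM in CTX, with CTX 3 below control 3. Rps3a1, a small-subunit protein at the platform, had 718, 696 and 992 RPKM in the controls and 982, 790 and 923 RPKM in CTX, with control 3 the highest library.

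Translation factors had a median log2 difference of 0.07, or 0.04 without CTX 1. Of 38 tested, 31 were positive and 20 were highest in CTX 1. Eef1a1, which delivers tRNA to the ribosome, had 2806, 2715 and 3102 RPKM in the controls and 3191, 2965 and 2897 RPKM in CTX. The groups overlapped, and so did those of Eef2, the translocation factor, with 990.0, 934 and 1122 RPKM in the controls and 1054, 1041 and 973 RPKM in CTX.

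Mitochondrial ribosomal proteins, which belong to a separate ribosome and are made from other mRNAs, were also mostly highest in CTX 1, in 64 of 77 tested genes, where 24% of all genes were. Their mean log2(RPKM + 1) was 4.17, 4.22 and 4.17 in the controls and 4.62, 4.11 and 4.11 in CTX, so CTX 1 stood alone and CTX 2 and 3 were the lowest libraries. The median log2 difference was 0.09, and -0.07 without CTX 1. In the cytoplasmic family the same mean was 6.67, 6.66 and 6.95 in the controls and 7.23, 6.82 and 6.87 in CTX, where the low pair was controls 1 and 2.

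Genes that build ribosomes had their highest mean levels in CTX 2 and 3: the mean log2(RPKM + 1) was 4.09, 4.10 and 4.18 in the controls and 4.18, 4.28 and 4.28 in CTX 1, 2 and 3. Of 71 tested biogenesis genes, 65 had a positive difference, with a median of 0.12 that was 0.16 without CTX 1, and CTX 1 was highest in 16. All CTX libraries lay above all controls in 14 of the 71 and below in 1, beside 3.32% and 5.5% of all genes. Npm1, a nucleolar chaperone, had 172, 164 and 244 RPKM in the controls and 183, 229 and 235 RPKM in CTX, with control 3 highest. Nop10, a core protein of the particles that modify ribosomal RNA, had 51.3, 48.3 and 47.6 RPKM in the controls and 72.6, 58.0 and 55.5 RPKM in CTX, without overlap.

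Chaperones and importers of ribosomal proteins (11 tested) had a median difference of 0.14, or 0.06 without CTX 1, with 9 positive in both. Genes that control the synthesis of these proteins through mTOR, LARP1 and MYC (19 tested) had a median of 0.01 with 11 positive, or 0.09 with 13 positive without CTX 1. Eif4ebp1, the repressor of cap-dependent translation that mTOR inactivates, had 44.4, 47.3 and 60.7 RPKM in the controls and 70.9, 63.9 and 58.7 RPKM in CTX, with CTX 3 below control 3.

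**Figure D4:**
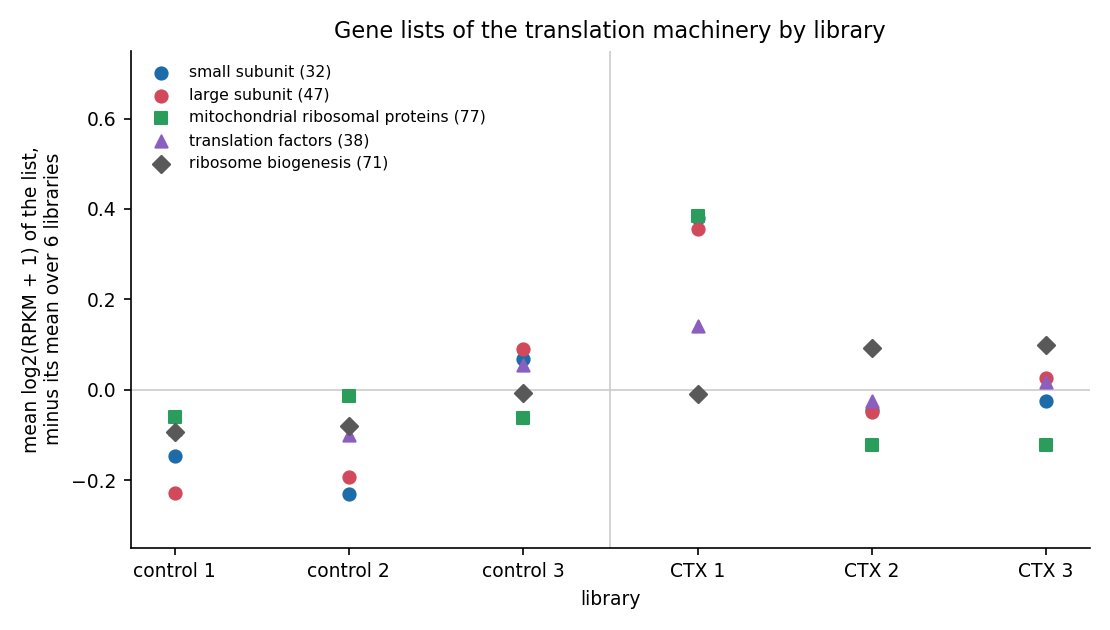
The y axis is the mean log2(RPKM + 1) of a gene list in a library minus the mean of that list over the 6 libraries, and each symbol is 1 list with its number of tested genes. Both ribosomal subunits and the mitochondrial ribosome stand highest in CTX 1, controls 1 and 2 are low for the cytoplasmic ribosome, and biogenesis genes are highest in CTX 2 and 3.

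Promoters of the family hold known sequence features, which were compared with those of all genes in the RefSeq promoter table (GRCm38.p6, 250 bases before to 50 after the annotated start). Of the 81 genes, 60 matched the table by symbol. A start with a C followed by at least 4 pyrimidines, at or within 5 bases of the annotated start on the gene's strand, was present in 27 of 60 (45%) and in 18.5% of 27025 genes. At the first base of the mRNA, such a tract is the feature through which mTOR and LARP1 control the translation of these mRNAs. The search used the first start listed for each gene, and the starts used in these ovaries were not measured. Tracts can therefore be missed, and a marked tract need not lie at the first base of the mRNA. The windows below show 15 bases on either side of the start, with the tract in capitals, for genes whose values are described above and for Rps6, the kinase target that is the standard marker of mTOR activity.
Rpl12 (chr2:32961697-32961726, plus strand): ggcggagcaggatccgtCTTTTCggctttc
Rplp2 (chr7:141447636-141447665, plus strand): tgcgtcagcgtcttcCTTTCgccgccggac
Rpl14 (chr9:120571502-120571531, plus strand): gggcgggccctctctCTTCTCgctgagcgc
Rps10 (chr17:27635230-27635259, minus strand): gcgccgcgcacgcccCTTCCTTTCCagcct
Rps26 (chr10:128626492-128626521, minus strand): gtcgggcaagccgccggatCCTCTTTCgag
Rps27l (chr9:66946071-66946100, plus strand): ccactcctccccgccgCCTCTatcccggaa
Rps6 (chr4:86857353-86857382, minus strand): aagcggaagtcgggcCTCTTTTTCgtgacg

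The tract begins at the annotated start in Rplp2, Rpl14, Rps10 and Rps6 and some bases downstream of it in Rpl12, Rps26 and Rps27l. Of the genes shown, Rpl14 and Rps10 had a large excess in CTX 1, and Rps6 and Rpl12 did not. Levels were not compared between genes with and without a tract, so a relation between the tract and the level was not tested. Of motifs searched on both strands of the whole window, CCGGAAG, which ETS factors such as GABP bind, was present in 24 of 60 genes (40%) and in 9.12% of all genes. ATGGCG, the core of YY1 sites and of translation starts, was present in 17 (28.3%) and in 9.24%, and GGGCGG, the SP1 box, in 35 (58.3%) and in 35.9%. The TATA box TATAAA was present in 5 (8.33%) and in 14.2%. A match describes the letters in the window and not a bound site.

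Levels within the family ranged widely although the proteins are needed in nearly equal numbers. Among 78 genes with a mean of at least 5 RPKM, the mean ran from 7.23 RPKM in Rps27 to 1450 RPKM in Rplp1, a 201-fold range. Per kilobase of the main mRNA instead of all annotated exons, it ran from 12.04 to 3088, a 257-fold range, so the range was no narrower on that scale. The SD of log2 levels between genes was 2.06 by RPKM and 1.94 per mRNA kilobase.

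Low genes shared more sequence with other genes. A median of 55.5% of the 50-base words in the main mRNA also occurred in another annotated gene, more than 50% in 50 of 81 genes, and 76 of 81 shared such words with a pseudogene. In the 26 genes of lowest level (up to 73.3 RPKM) the median was 77.2%, and in the 26 of highest level (from 285 RPKM) it was 47.6%. Over the 78 genes, which share all libraries, the Spearman correlation between level and shared words was -0.32. The sources used here do not say how reads with several matches were treated. The levels of these genes are uncertain, and for a gene and its copy they cannot be told apart.

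Several copies stood far above the gene they derive from in RPKM, where each row is scaled by its own exon length. The copies given here were named after their values were seen. Rps27a, a fusion of ubiquitin and a small-subunit protein, had a mean of 14.6 RPKM while Rps27a-ps2 had 695 RPKM. Rpl17, a tunnel protein, had 32.2 RPKM while Rpl17-ps10 had 470 RPKM. With the reads of all pseudogene copies added on the gene's own exon length, Rps27a had a mean of 191 RPKM and Rpl17 of 239 RPKM. Rps12 had a mean of 34.1 RPKM while Rps12-ps3, which the annotation lists as protein coding, had 413 RPKM. Rps27 shared 98.6% of its words, and the intronless copy Rps27rt, also listed as protein coding, had 239, 189 and 206 RPKM in the controls and 219, 138 and 202 RPKM in CTX. Of 260 rows named as pseudogenes of the family, 107 were at 0 in all 6 libraries and 45 had a mean of at least 5 RPKM.

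**Figure D5:**
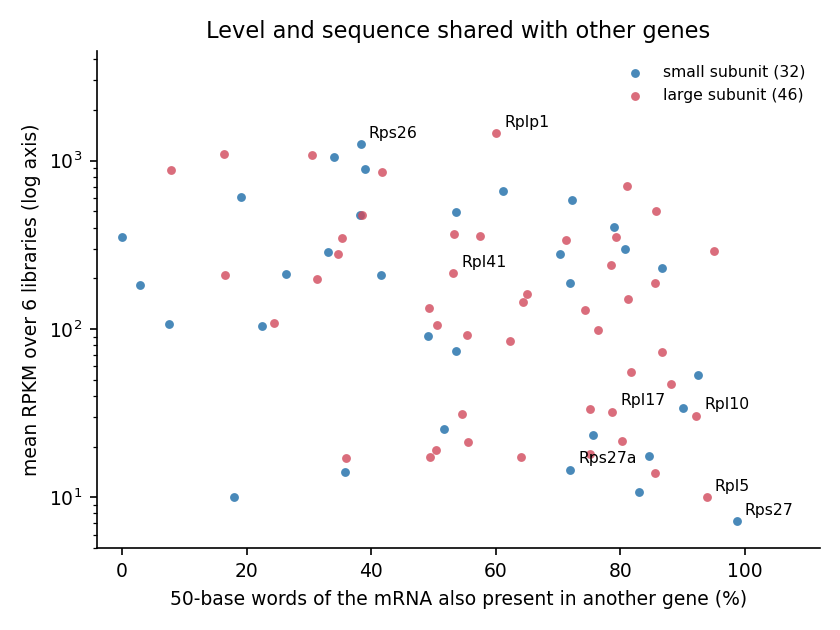
Each point is 1 of 78 ribosomal protein genes with a mean of at least 5 RPKM, with the percentage of 50-base words of its main mRNA that also occur in another gene on the x axis and its mean RPKM over the 6 libraries on the y axis (log scale). Genes below 73.3 RPKM share a median of 77.2% and genes above 285 RPKM a median of 47.6%.

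The summed pseudogene rows stood at 23.4, 22.3 and 23.5% of the summed ribosomal protein genes in the controls and at 20.7, 18.3 and 22.4% in CTX. CTX 2 had the lowest share. In this library Rpl21 was at its highest (38.5 RPKM), while Rpl21-ps15, with 254, 231 and 325 RPKM in the controls and 295, 175 and 302 RPKM in CTX 1, 2 and 3, was at its lowest. When the reads of 810 rows annotated as pseudogenes that share words with a gene of the family were added to it, the values of 72 genes changed. Rps12-ps3 and Rps27rt are not in this sum, so Rps12 and Rps27 hardly moved, to means of 35.5 and 7.24 RPKM. With it, the median log2 difference was 0.21, with 73 positive and 67 highest in CTX 1. The SD of log2 levels between genes was 2.06 before and 1.69 after this sum, while the fold range was 201 before and 203 after. Rpl36a then had 42.5, 49.3 and 62.7 RPKM in the controls and 63.2, 56.9 and 57.9 RPKM in CTX, and its log2 difference turned from -0.07 to 0.22.

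Introns of the family also house small nucleolar RNAs, the guides for chemical modification of ribosomal RNA. In 29 of the 81 genes the annotation places 56 of them, with at most 5 in 1 gene, Rpl4. Of the 56, 24 were listed at 0 in all 6 libraries and 19 had at least 1 RPKM in all 6. In genes this short 1 RPKM stands for few reads, and reads from an unspliced host intron cannot be told apart from theirs. The counts therefore do not show which of these small RNAs were made.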

How the data were processed

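Whole-ovary RNA was sequenced in 3 control and 3 CTX libraries, made per the labels' protocols from 1 µg of total RNA. The authors deposited 1 table per library with symbol, Ensembl identifier and 1 value per gene. No header names the unit, and the deposited values are taken as RPKM from their steps: among genes of up to 1000 exonic bases, 97.7 to 98.0% of values up to 15 reads were whole multiples of 1 read, within 0.2 reads. The same steps gave the depth scale. The submitters' processing notes name Bowtie 0.12.2 and mm10. The sources used here do not give the counter, the annotation, the strand setting or how reads with several matches were handled. Reads summed back over genes come to 1.19 to 1.20 times the depth scale, so no counting interval is given.

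Symbols turned into dates or left blank (30) were restored by identifier. GENCODE M21 on GRCm38 matched 45229 identifiers (98.2%) and all 81 genes, and gave exons, lengths and coordinates. log2(RPKM + 1) was fitted over all 14535 genes that reached 1 RPKM in 3 or more libraries, in limma 3.58.1 (R 4.3.3) with trended moderated variances, two-sided, with Benjamini-Hochberg adjustment at 0.05. The fit was also run on simulated data with independent noise in each gene. In the real libraries genes deviated together, with a leading residual component of 0.71 in CTX 1 and -0.39 in control 3. The simulation therefore does not show which changes the fit would miss here. Words of 50 bases in the main mRNA were looked up in all other annotated transcripts.

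Genes of the family named in the text are the 3 most abundant per subunit, the 5 of smallest p in each direction, paralogs ending in l with their parents, the 3 most variable, the stalk and 5S particle genes, and those that missed the filter. 1 gene that this rule takes is not reported here. Of each other list, the 2 most abundant and the 1 of smallest p per direction could be named. The members, lists and tests were chosen with earlier results of these data known. Alternatives were 3 other scalings, a length correction, no trend, array weights, 2 filters, 2 pseudocounts, a replicate block, voom, a residual component, each library left out and, chosen after the data were seen, members summed with their pseudogene copies.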

Additional observations from a re-analysis of the deposited data

How the results depend on the processing

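No setting other than array weights (23 higher) called a ribosomal protein gene. The median difference was positive in every setting (0.11 to 0.32 with 1 library left out), but all settings use the same libraries. The within-group SD of the libraries' median deviation was 0.21, close to the main median difference of 0.22. The sign in these settings therefore does not show that the shift exceeds the spread between libraries. Array weights called 4062 genes higher and 2747 lower among all genes, and the residual component 73 and 86. Leaving out 1 library gave 0 to 2 genes called higher and 0 to 3 lower, the highest without CTX 1. Groups did not overlap, with CTX higher, in 9 ribosomal protein genes after quantile normalization (4.3% of all genes) and in 8 after length correction (4.97%). With 1 library left out this was 3 to 48 genes higher, the most without control 3, and 0 to 2 lower, the most without control 2. The causes were not tested.

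Several genes changed sign, and not only those near 0: the main log2 difference was 0.20 for Rpl39 and 0.12 for Rps27l. Rps26 was at -0.0365 after quantile normalization. With array weights Rpl11 was at -0.0219, Rpl36a at 0.0942, Rpl39 at -0.0633 and Rps27l at -0.23. With pseudogene copies summed, Rpl36a was at 0.22 and Rpl37 at 0.0319. With 1 library left out the lowest and highest log2 differences were -0.0561 and 0.22 for Rpl11, -0.0674 and 0.4152 for Rpl39, -0.006 and 0.205 for Rps26, and -0.1946 and 0.3188 for Rps27l, lowest without CTX 1 and highest without CTX 2. The same holds for Rpl37, at -0.2374 and 0.2096. For Rps27 they were -0.2595 without CTX 1 and 0.0585 without CTX 3, and for Rpl36a -0.2008 without CTX 3 and 0.09 without control 3.

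Same-numbered libraries deviated from their group means together in numbers 1 and 3 (correlations of 0.40 and 0.60 over all genes) and apart in number 2 (-0.54). Over the ribosomal protein genes the correlations were -0.02, 0.13 and 0.32. Between differently numbered libraries they ran as widely over all genes, from -0.66 (control 3, CTX 1) to 0.61 (control 2, CTX 1). These values therefore cannot decide whether the numbers pair the samples. The replicate block called 0 genes in either direction and left the median difference at 0.22. Rpl39l, Rpl10l and Rpl3l rest on few reads, and 3 libraries per group limit every comparison.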
